A study of Mus musculus with 6 samples.

Results

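The genes described here encode the cytoplasmic polyadenylation element binding (CPEB) proteins Cpeb1, Cpeb2, Cpeb3 and Cpeb4, together with 5 proteins of poly(A) tail shortening and 3′ UTR binding, Cnot6, Cnot7, Parn, Tob1 and Pum2. They were taken by gene symbol from a deposited table of 21989 genes, and all 9 symbols were found. All 9 had a mean of at least 1 FPKM (fragments counted on a gene, divided by its length and by the library total) over the 6 libraries and were therefore among the 12269 genes tested. RNA with poly(A) tails was sequenced from the left ventricle of male C57BL/6 mice. The ISO group (3 libraries, called a heart failure group in the labels) received 10 mg/kg of ISO under the skin each day for 3 weeks. The saline group (3 libraries, called sham) received normal saline in the same volume. ISO is the usual abbreviation of isoproterenol, an agonist of beta-adrenergic receptors. The series title names Cpeb4 as a regulator of heart muscle cell death and division, and the comparison asks which of these genes differ between ISO and saline ventricles.

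CPEB proteins bind U-rich elements (CPEs) in the 3′ UTR of messenger RNAs. Through partner enzymes they lengthen or shorten the poly(A) tail and so raise or lower translation, a system worked out mainly in frog oocytes. Shortening is the task of deadenylases such as the CCR4-NOT complex, in which Cnot6 and Cnot7 are catalytic subunits, and Parn. Tob1 is an adaptor that joins RNA-binding proteins to Cnot7, and Pum2 is a Pumilio protein that recruits the same complex to its own element.

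The library totals behind the FPKM were 7378782, 5154283 and 5614336 reads for ISO 1 to 3, against 9862363, 6307039 and 2776152 reads for saline 1 to 3. Saline 3 stood apart from the rest. Its Pearson r with the other libraries, over log2(FPKM + 1) of the genes tested, lay between 0.788 and 0.830, against 0.918 or more between any others. The labels call the tissue left ventricle, but the atrial marker list (Myl7, Myl4, Sln, Nppa, Bmp10) summed to 15131 to 18048 FPKM across ISO libraries, against 10424 to 26372 FPKM across saline libraries. The ventricular markers (Myl2, Myl3, Irx4, Hey2) summed to 187 to 2608 FPKM in the ISO libraries, against 693 to 13433 FPKM in the saline libraries, above the atrial sum in saline 3 alone. That sum was nearly all Myl2 (9101 FPKM in saline 3) and Myl3 (4326 FPKM). Irx4 and Hey2 did not share the rise in saline 3. Irx4 was at 4.53 FPKM there, against 10.3 FPKM in saline 1, and Hey2 was at its lowest, 1.14 FPKM. All markers of both lists were above 0 in every library. In bulk tissue, fewer cells of a type and less RNA per cell cannot be told apart. No label ties a library to an animal, and p-values therefore cover the spread among libraries, which may be technical.

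Because CPEB proteins act on sites in 3′ UTRs, the sites in the genes' own messages are shown first. The longest annotated 3′ UTR of each gene (GENCODE M21, GRCm38) was searched on the sense strand for both CPE forms, TTTTAT and TTTTAAT, and for the Pumilio element TGTANATA. The windows below hold the most CPEs of their UTR, or the first CPE where no window held more than 1. They are written as DNA, 5′ to 3′, with the elements in capitals.
Cpeb2, chr5:43289141-43289170, plus strand: ttgtttttttgggTTTTATTTTATTTTAAT
Cpeb4, chr11:31933748-31933777, plus strand: acttcattTTTTAATataaataaTTTTAAT
Cnot7, chr8:40493957-40493986, minus strand: caggaaatagtcttcttatTTTTATTTTAT
Cpeb1, chr7:81347585-81347614, minus strand: gagaaaaattaTTTTATttaaaactggacc
Cpeb3, chr19:37024713-37024742, minus strand: gaaatgggtctTTTTATtattattattatc
Tob1, chr11:94214996-94215025, plus strand: ctgaattttttTTTTATaaaaaattggcac
The capitals mark 3 CPEs in the Cpeb2 window, each sharing its last base with the next, 2 in the Cpeb4 window, and 2 in the Cnot7 window, which also share a base and lie within the first 30 bases after the stop codon. Cpeb2 carried 24 CPEs in a 3′ UTR of 3778 bases, Cpeb4 17 in 4102 bases and Cnot7 9 in 1447 bases. Parn had none in 890 bases, and Tob1 had 1 in 767 bases.

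Per 1000 bases this was 6.35 CPEs for Cpeb2, 6.22 for Cnot7 and 4.14 for Cpeb4. The background was the 11071 tested genes with a 3′ UTR of at least 150 bases. Their pooled rate, all CPEs over all bases, was 1.30, and the median of their single rates was 0.90. Cnot6 had 2.44, Pum2 2.80, Cpeb1 3.04 and Cpeb3 1.68. At least 1 CPE was present in 64.3% of the UTRs of those tested genes, and in those of 8 of the 9 genes. A longer UTR has more room for a match. The median 3′ UTR of the tested genes had 1227 bases, and all of the 9 genes but Parn and Tob1 had a longer one. The UTRs with many CPEs were also rich in A and T (66.6% for Cpeb2, 66.3% for Cnot7 and 65.7% for Cpeb4, against a median of 55.1%). Tob1 had the highest such content of the 9 genes (72.9%) with 1 CPE. The part of base composition in the counts was not tested. In the last 150 bases, where the polyadenylation signal lies, none of the 9 genes had a CPE, and 24.4% of the tested genes did. The signal AATAAA stood there in 8 of the 9 genes, all but Tob1, and in 68.1% of tested genes. The end of the Cpeb4 message, with the signal in capitals, reads as follows.
Cpeb4, chr11:31935605-31935634, plus strand: gatgttgaatgAATAAAacttttaactcag

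The Pumilio element, which Pum2 binds, was present in the Pum2 message itself and in those of Cnot7, Cpeb1, Cpeb2 and Cpeb3, and in 26.9% of the UTRs of tested genes. Per 1000 bases the rate was 1.38 for Cnot7, 0.760 for Cpeb1, 0.699 for Pum2, 0.280 for Cpeb3 and 0.265 for Cpeb2. These rates rested on only 2, 1, 2, 1 and 1 elements, in that order. The pooled rate was 0.233 over the tested genes, and Cpeb4, Cnot6, Parn and Tob1 had no such element. A longer UTR also has more room for this element. The Pum2 and Cpeb1 elements are shown with the element in capitals.
Pum2, chr12:8750154-8750183, plus strand: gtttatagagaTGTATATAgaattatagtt
Cpeb1, chr7:81347543-81347572, minus strand: tgagcagctgcTGTATATAgttttaaatgg
These matches describe letters and not binding.

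Cpeb4 stood high in ISO 2 and ISO 3 and low in the other libraries, and no other CPEB gene had that pattern. Of the 9 genes, Cpeb4 and Pum2 had both ISO 2 and ISO 3 above the other 4 libraries, beside 11.7% of the genes tested. This split of the libraries was described after the values were seen. Cpeb4 (chromosome 11, 31872211 to 31935634, plus strand, GRCm38) belongs to the group of CPEB proteins that includes Cpeb2 and Cpeb3, and is known from frog oocytes to act late in meiotic maturation. It was at 2.47, 21.8 and 23.6 FPKM in ISO 1 to 3, against 4.45, 3.15 and 2.53 FPKM in saline 1 to 3. ISO 2 was 8.86-fold and ISO 3 was 9.59-fold over ISO 1, and ISO 1 was below every saline library, so the groups overlapped. The mean was 15.98 ± 11.7 FPKM in ISO and 3.38 ± 0.982 FPKM in saline (SD, n = 3 each).

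These levels rested on 140, 866 and 1022 reads in ISO 1 to 3, and on 338, 153 and 54 reads in saline 1 to 3. The 95% exact Poisson intervals, which cover counting error only, ran in ISO 1 over 2.07 to 2.91 FPKM, in ISO 2 over 20.4 to 23.3 FPKM and in ISO 3 over 22.2 to 25.1 FPKM. In saline 3, the shallowest library, the interval was 1.90 to 3.30 FPKM. Among the genes tested, Cpeb4 ranked at the 17.0, 74.8 and 75.5 percentile in ISO 1 to 3, and at the 31.6, 22.7 and 28.0 percentile in saline 1 to 3. The rank within a library, which does not depend on its total, thus showed the same gap between ISO 1 and the other ISO libraries.

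The log2 fold change of Cpeb4, ISO over saline on the log2(FPKM + 1) scale, was 1.54 (SE 0.74). It did not pass (limma, adjusted p = 0.699 over all 12269 genes). In that fit 0 genes passed (0%), as with limma-voom on recovered reads, with 774 genes (6.31%) at an unadjusted p under 0.05 and none of the 9 genes among them. Without ISO 1 the log2 fold change was 2.46 (limma, adjusted p = 0.0846), and without ISO 2 or ISO 3 it was 1.10 or 1.05.

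The ISO libraries differed more in Cpeb4 than in the other 8 genes. Its SD among the ISO libraries was 1.60 on the log2 scale, larger than that of 99.1% of the genes tested, where the median was 0.24, and that of Cpeb3 and Cpeb1 was 0.58 and 0.48. Among the saline libraries its SD was 0.32, larger than that of 31.2% of genes, where the median was 0.48. In 53 genes (0.432% of those tested) ISO 2 and ISO 3 were both at least 4-fold over every other library in FPKM + 1. Cpeb4 was among these. This rule was set after the values were seen, so the share describes the pattern and is no test of it. On plain FPKM, where folds are larger than on FPKM + 1, Cpeb4 in ISO 2 and ISO 3 was 4.90-fold and 5.31-fold over the highest saline library.

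**Figure D1:**
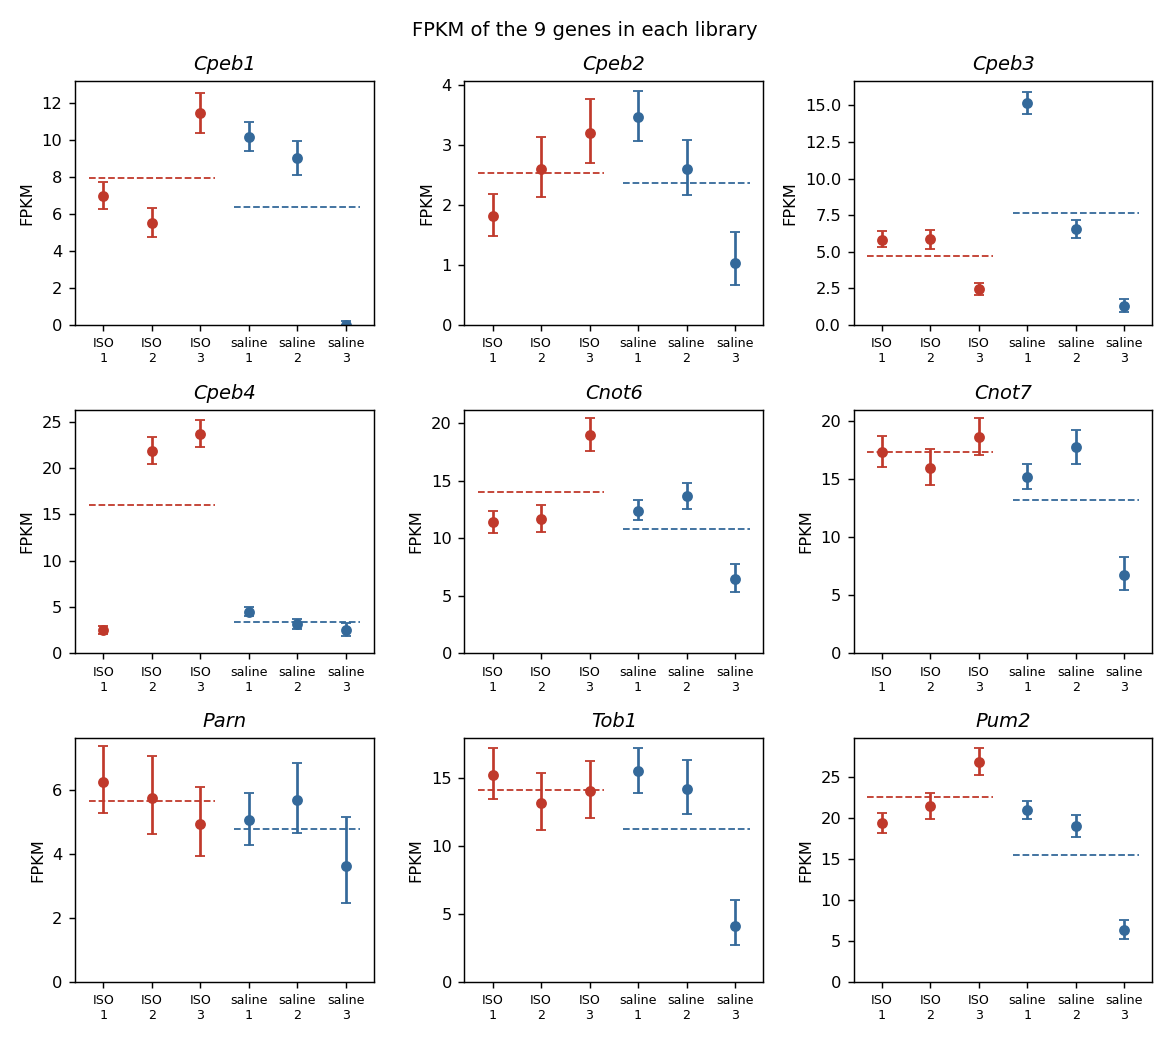
FPKM (y axis, from 0) of the 9 genes in each library (x axis), ISO in red and saline in blue; bars are 95% exact Poisson intervals for counting error and dashed lines are group means. Cpeb4 was at 21.8 and 23.6 FPKM in ISO 2 and ISO 3 and at 4.45 FPKM or less elsewhere, and saline 3 was the lowest library for the 8 other genes.

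The genes whose profile over the 6 libraries lay nearest to that of Cpeb4 were Il12b, Txnrd1, Mmp12, Mcoln2 and Cd274. Nearness is the root mean square difference of the centred log2(FPKM + 1) values, which was 0.11, 0.11, 0.14, 0.16 and 0.18 for these genes. Txnrd1, a thioredoxin reductase, was at 12.2, 84.6 and 80.9 FPKM in ISO 1 to 3, against 18.5, 13.9 and 9.68 FPKM in saline 1 to 3. Cd274, the ligand of the PD-1 receptor, was at 4.80, 47.0 and 49.1 FPKM in ISO 1 to 3, against 7.36, 7.28 and 4.55 FPKM in saline 1 to 3. Both had the same low ISO 1 library as Cpeb4. Il12b, a subunit of interleukin 12, was at 5.81 and 5.97 FPKM in ISO 2 and ISO 3, at 0.364 FPKM in saline 1, and listed at 0 in ISO 1, saline 2 and saline 3. Mmp12, a macrophage elastase, was at 7.61 and 7.13 FPKM in ISO 2 and ISO 3 and at 1.16 FPKM or less in the other libraries. Mcoln2 was at 6.37 and 6.38 FPKM in ISO 2 and ISO 3 and at 0.460 FPKM or less elsewhere. Il12b, Mmp12 and Mcoln2 reached the mean of 1 FPKM that testing required only through ISO 2 and ISO 3. Among low genes that requirement itself favours such a profile, so their likeness to Cpeb4 is partly set by it.

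**Figure D2:**
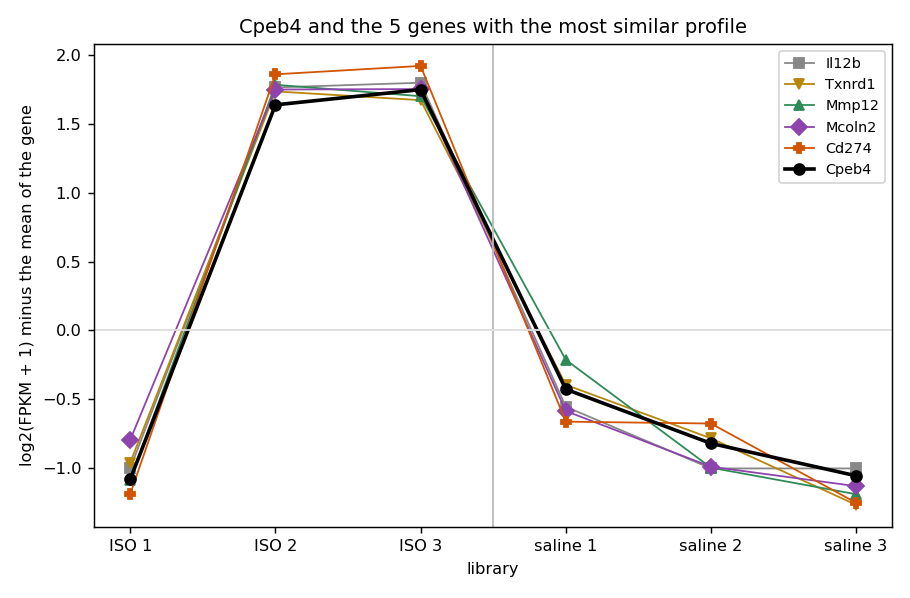
Centred log2(FPKM + 1) (y axis) in each library (x axis) for Cpeb4, in black, and the 5 genes nearest to it. All 6 genes stood high in ISO 2 and ISO 3 and low in ISO 1 and the saline libraries; the genes were selected for this likeness.

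Part of the macrophage and monocyte markers shared the order of Cpeb4, ISO 2 and ISO 3 above the other 4 libraries, by any margin. The list of 10 genes summed to 937, 1819 and 1693 FPKM in ISO 1 to 3, against 429, 605 and 741 FPKM in saline 1 to 3, and all 10 were above 0 in every library. For 6 of the 10 (Cd68, Csf1r, Adgre1, Mrc1, C1qb and Lyz2) ISO 2 and ISO 3 were both above the other 4 libraries, beside 11.7% of the genes tested, and for Cd163, C1qa, Ccr2 and Fcgr1 they were not. Cd68, a lysosomal protein of macrophages, was at 33.6, 124 and 129 FPKM in ISO 1 to 3, against 19.3, 26.1 and 26.0 FPKM in saline 1 to 3. The fold over ISO 1 was small for Mrc1, at 19.6, 22.3 and 24.1 FPKM in ISO 1 to 3. It was also small for C1qb, at 162, 206 and 176 FPKM, and lay in between for Csf1r, Adgre1 and Lyz2. The part of these markers in the level of Cpeb4 was not tested. The same order, again by any margin, held for 4 of 8 fibroblast markers. The fibroblast list summed to 2956, 2809 and 1975 FPKM in ISO 1 to 3, against 2113, 1552 and 1530 FPKM in saline 1 to 3. The order held for 4 of 7 cartilage markers, with Matn1 listed at 0 in 4 libraries. The cartilage list summed to 33.1, 131 and 140 FPKM in ISO 1 to 3, against 11.4, 76.5 and 53.6 FPKM in saline 1 to 3. The order held for 4 of 9 erythroid markers, whose sums are given beside Fam46c. It held for 1 of 8 endothelial, 1 of 9 neutrophil and 1 of 6 platelet markers. It held for 0 of 10 lymphocyte markers, and for 0 of 10 markers of heart muscle cells of both chambers.

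Cpeb1, the founding member of the family, known from oocytes and neurons, was detected in 5 of the 6 libraries. It was at 6.96, 5.51 and 11.4 FPKM in ISO 1 to 3, against 10.2, 8.999 and 0 FPKM in saline 1 to 3 (chromosome 7, 81347026 to 81455465, minus strand). The groups overlapped, with the highest level in ISO 3 and the lowest in saline 3. Saline 3 would have held 182 reads at the mean level of the other saline libraries, and its 0 reads allow up to 0.158 FPKM (3 reads). Of 8082 tested genes with a mean of at least 5 FPKM in saline 1 and 2, 53 (0.656%) were at 0 in saline 3, Cpeb1 among them. Its log2 fold change of 0.84 (SE 0.90, limma, adjusted p = 0.730) was -0.29 without saline 3, and 1.87 with a pseudocount of 0.1 in place of 1. The nearest profiles were those of Snx15 (0.13) and Zfp944 (0.14), which were at 0.329 and 0.245 FPKM in saline 3 and at 8.12 FPKM or more elsewhere.

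Cpeb3, a repressor of translation studied in neurons, was at 5.83, 5.83 and 2.42 FPKM in ISO 1 to 3, against 15.2, 6.54 and 1.27 FPKM in saline 1 to 3 (chromosome 19, 37021291 to 37208601, minus strand). The saline libraries thus held both its highest and its lowest level, and all ISO libraries lay between them. Its log2 fold change was -0.26 (SE 0.70, limma, adjusted p = 0.889), and -1.02 without saline 3 (limma, adjusted p = 0.505). It was 0.39 without saline 1 and 0.07 without ISO 3, so the direction turned with single libraries. Its SD on the log2 scale was 0.58 in ISO and 1.43 in saline, larger than that of 89.9% and 95.3% of the genes tested. The nearest profiles were those of Asb15 and Ppip5k2 (0.14 each).

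Cpeb2, which is known to slow translation elongation, had the lowest mean FPKM of the 9 genes. It was at 1.81, 2.59 and 3.20 FPKM in ISO 1 to 3, against 3.47, 2.59 and 1.03 FPKM in saline 1 to 3 (chromosome 5, 43233170 to 43289724, plus strand). The groups overlapped throughout, and saline 3 rested on 23 reads. The log2 fold change was 0.13 (SE 0.37, limma, adjusted p = 0.901) and -0.20 without saline 3, and its sign turned under several scalings. The nearest profiles were those of Mettl14 and Cbarp (0.08 each).

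Within the family, Cpeb4 took most of the summed FPKM in ISO 2 and ISO 3. It made up 14.4%, 61.04% and 58.1% of the sum in ISO 1 to 3, against 13.4%, 14.8% and 52.3% in saline 1 to 3. The sum was 17.1, 35.8 and 40.7 FPKM in ISO 1 to 3, against 33.3, 21.3 and 4.83 FPKM in saline 1 to 3. The high share in saline 3 came with low levels of the other CPEB genes, not with a high level of Cpeb4. The mean share was 44.5 ± 26.1% in ISO and 26.8 ± 22.1% in saline (SD, n = 3 each), a difference of 17.7 percentage points (exact permutation test, two-sided, p = 0.3). The smallest p that 3 against 3 libraries allow is 0.1. The difference was 32.7 points without ISO 1 and 30.4 points without saline 3, and it was 9.42 or 10.9 points without ISO 2 or ISO 3. It was 10.9 or 11.7 points without saline 1 or saline 2.

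**Figure D3:**
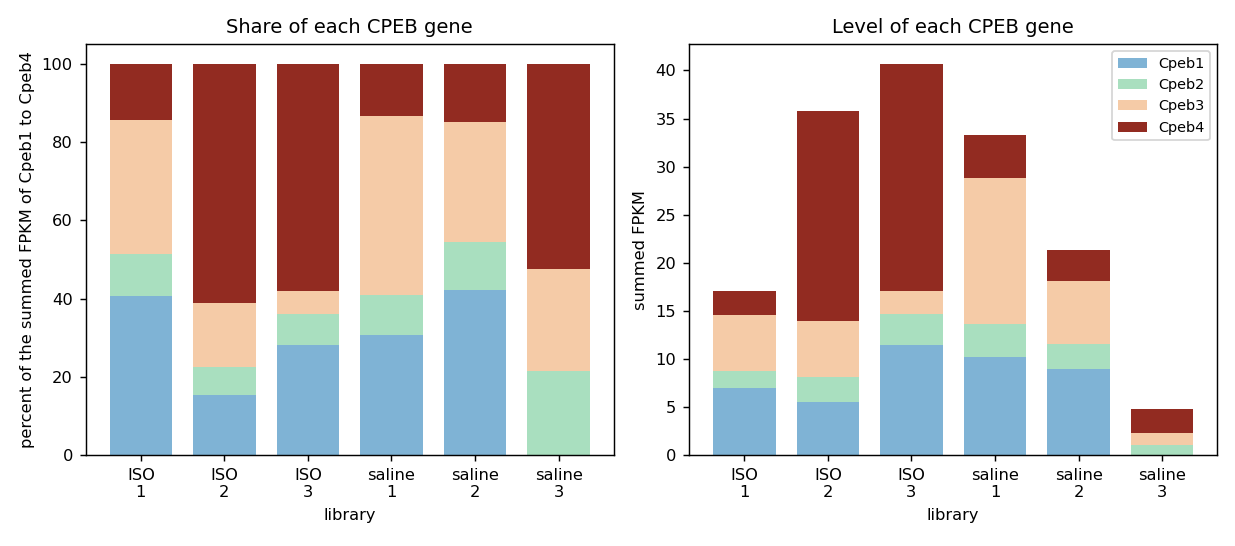
Share of each CPEB gene in the summed FPKM of the 4 genes (left, percent) and its FPKM (right, stacked from 0) in each library. Cpeb4 was 61.04% and 58.1% of the sum in ISO 2 and ISO 3 and 14.8% or less in ISO 1, saline 1 and saline 2, while saline 3 had 52.3% of a sum of 4.83 FPKM.

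None of the 5 partners passed the test, and without saline 3 their log2 fold changes lay between -0.07 and 0.16. Cnot7, the CAF1 deadenylase, was at 17.3, 15.9 and 18.6 FPKM in ISO 1 to 3, against 15.2, 17.7 and 6.76 FPKM in saline 1 to 3 (chromosome 8, 40492540 to 40515847, minus strand). Its log2 fold change was 0.46 (SE 0.36, limma, adjusted p = 0.699), and 0.07 without saline 3. Cnot6, the CCR4 deadenylase, was at 11.4, 11.7 and 18.96 FPKM in ISO 1 to 3, against 12.4, 13.7 and 6.44 FPKM in saline 1 to 3 (chromosome 11, 49671503 to 49712723, minus strand). It was highest in ISO 3 and lowest in saline 3, and the other libraries lay between 11.4 and 13.7 FPKM. Its log2 fold change was 0.37 (SE 0.35, limma, adjusted p = 0.707), and 0.06 without saline 3.

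The balance of these catalytic subunits did not differ beyond the spread. The log2 ratio of Cnot6 to Cnot7 was -0.61, -0.45 and 0.03 in ISO 1 to 3, against -0.29, -0.38 and -0.07 in saline 1 to 3. Libraries numbered 3 had the highest ratio in each group, and no label says whether equal numbers pair libraries. The mean was -0.34 ± 0.33 in ISO and -0.25 ± 0.16 in saline (SD, n = 3 each), a difference of -0.10 (exact permutation test, two-sided, p = 0.7).

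Tob1, the adaptor, was at 15.2, 13.1 and 14.0 FPKM in ISO 1 to 3, against 15.5, 14.2 and 4.09 FPKM in saline 1 to 3 (chromosome 11, 94211454 to 94215495, plus strand). Its ISO libraries lay close together, with an SD of 0.10 on the log2 scale, smaller than in most genes tested (14.5% had a lower one). The log2 fold change of 0.48 (SE 0.46, limma, adjusted p = 0.708) was -0.07 without saline 3, where it rested on 26 reads.

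Parn, a poly(A)-specific exonuclease, had the smallest standard error of the 9 genes. It was at 6.27, 5.75 and 4.93 FPKM in ISO 1 to 3, against 5.06, 5.68 and 3.64 FPKM in saline 1 to 3 (chromosome 16, 13537960 to 13668170, minus strand). The log2 fold change was 0.21 (SE 0.26, limma, adjusted p = 0.752), and 0.06 without saline 3.

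Pum2, the Pumilio protein, had the highest mean FPKM of the 9 genes. It was at 19.4, 21.5 and 26.9 FPKM in ISO 1 to 3, against 20.95, 19.0 and 6.32 FPKM in saline 1 to 3 (chromosome 12, 8674134 to 8752581, plus strand). The log2 fold change of 0.66 (SE 0.44, limma, adjusted p = 0.699) was the largest among the partners, and was 0.16 without saline 3. ISO 2 and ISO 3 were above every saline library, and ISO 1 was below saline 1.

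Among the partners, the nearest profile was that of Loxl1 for Cnot6 (0.04), Ptprk for Cnot7 (0.03), Dmwd for Parn (0.04), Dock9 for Tob1 (0.04) and Tor1aip2 for Pum2 (0.03). The next nearest were Ccdc59 (0.05), Crtc3 (0.04), Prkcdbp (0.05), Zfp275 (0.06) and Slc10a7 (0.06). Between the 9 genes themselves the nearest pairs were Tob1 with Pum2 (0.19), Cnot7 with Tob1 (0.19) and Cnot6 with Cnot7 (0.20), while Cpeb4 was nearest to Pum2 at 1.01.

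By mean FPKM over the 6 libraries the order was Pum2 (19.0), Cnot7 (15.2), Tob1 (12.7), Cnot6 (12.4), Cpeb4 (9.68), Cpeb1 (7.18), Cpeb3 (6.18), Parn (5.22) and Cpeb2 (2.45). Parn was above Cpeb2 in all 6 libraries, Pum2 above Cnot7 in 5 and Cnot7 above Tob1 in 5. Cnot6 was above Cpeb4 in 4. Tob1 and Cnot6 differed by -0.01 ± 0.38 on the log2 scale (SD over 6 libraries), and their order turned between libraries. Cpeb4, Cpeb1, Cpeb3 and Parn could not be ordered, since each was above the next in only 3 of 6 libraries.

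Across the 9 genes, 8 had a log2 fold change above 0, all but Cpeb3, beside 68.1% of all genes tested. The median was 0.46 for the 9 genes and 0.20 for all genes tested. Without saline 3, 5 of the 9 genes were above 0, beside 59.1% of all genes, and the median was 0.06 for both. The groups overlapped for all 9 genes, while they did not overlap for 2028 genes (16.5%) of those tested.

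**Figure D4:**
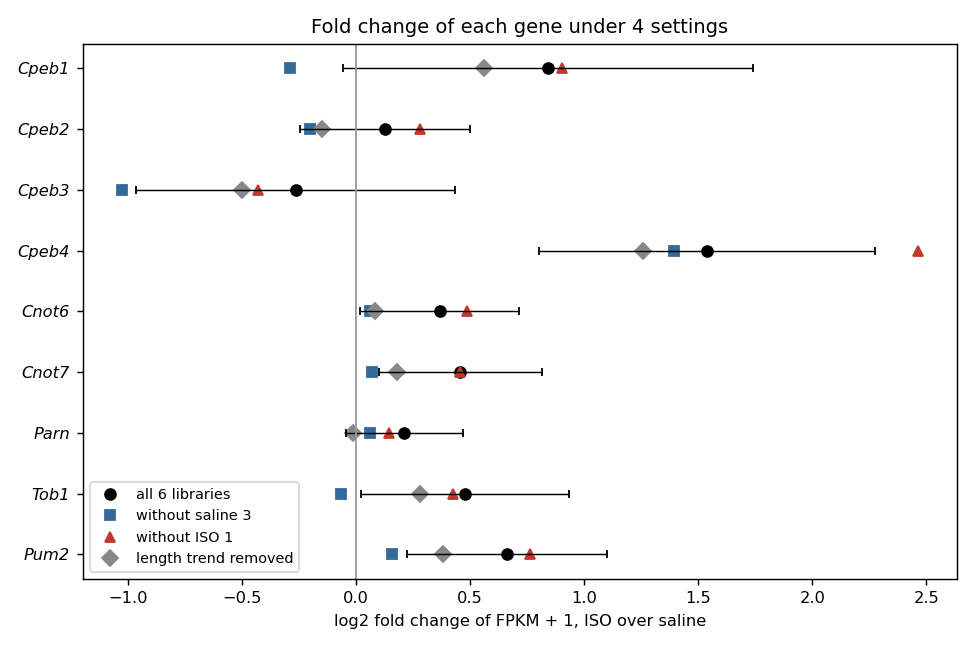
Log2 fold change of FPKM + 1, ISO over saline (x axis), of each gene with all 6 libraries (circles, bars are 1 SE), without saline 3 (squares), without ISO 1 (triangles) and after removal of the trend on gene length (diamonds). Cpeb4 lay between 1.26 and 2.46 under these settings, and Cpeb1, Cpeb2, Cpeb3 and Tob1 were below 0 without saline 3.

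All 9 genes were lower in saline 3 than in saline 1 and saline 2, beside 59.4% of the genes tested, and 8 were lowest there of all libraries, beside 52.8%. The median difference, saline 3 minus the mean of saline 1 and 2, was -1.16 on the log2 scale for the 9 genes and -0.38 for all genes tested. The median length behind the FPKM was 6726 bases for the 9 genes and 3431 bases for all genes tested, with Tob1 (2288 bases) and Parn (3068 bases) below the median of all genes. With the genes tested split into 4 length classes of near equal size, the median difference was -0.59 in the longest (5433 bases or more), -0.54 in the next (3432 to 5430 bases), -0.35 in the next (2083 to 3431 bases) and 0.08 in the shortest (2082 bases or less). Cpeb1 (-3.40), Cpeb3 (-2.28), Tob1 (-1.64) and Pum2 (-1.52) lay furthest below. Cnot7 (-1.16), Cpeb2 (-0.98), Cnot6 (-0.91) and Parn (-0.46) were also below the median of their length class, and Cpeb4 (-0.43) was above it. Lengths are those recovered from the FPKM, which differ from the GENCODE M21 exon lengths for 8 of the 9 genes. At its GENCODE length of 5381 bases Parn would fall in the class with the median of -0.54 and lie above it.

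Hepatocyte markers were highest and endothelial markers lowest in saline 3, while the sum of airway markers was high in both saline 3 and ISO 3. The 7 hepatocyte markers had a sum of 5.85, 9.32 and 26.3 FPKM in ISO 1 to 3, against 41.9, 18.4 and 796 FPKM in saline 1 to 3, with Serpina1a listed at 0 in ISO 2 and saline 2. The 7 airway and alveolar markers had a sum of 1.74, 2.91 and 196 FPKM in ISO 1 to 3, against 8.13, 13.5 and 218 FPKM in saline 1 to 3, with 3 to 7 of them above 0. Most of the high sums was Scgb1a1, at 182 FPKM in ISO 3 and 201 FPKM in saline 3. Sftpc was at 5.76 and 14.3 FPKM in ISO 3 and saline 3, and Scgb3a2 at 7.02 and 0.406 FPKM. Sftpd and Foxj1 were listed at 0 in saline 3. The 8 endothelial markers had a sum of 518, 480 and 436 FPKM in ISO 1 to 3, against 505, 379 and 132 FPKM in saline 1 to 3, with Cldn5 listed at 0 in ISO 1 and saline 3. The part of these in the low levels of the 9 genes was not tested. With the length trend removed in each library, the log2 fold changes were 1.26 for Cpeb4, 0.56 for Cpeb1, -0.50 for Cpeb3 and between -0.15 and 0.38 for the others, and none passed.

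**Figure D5:**
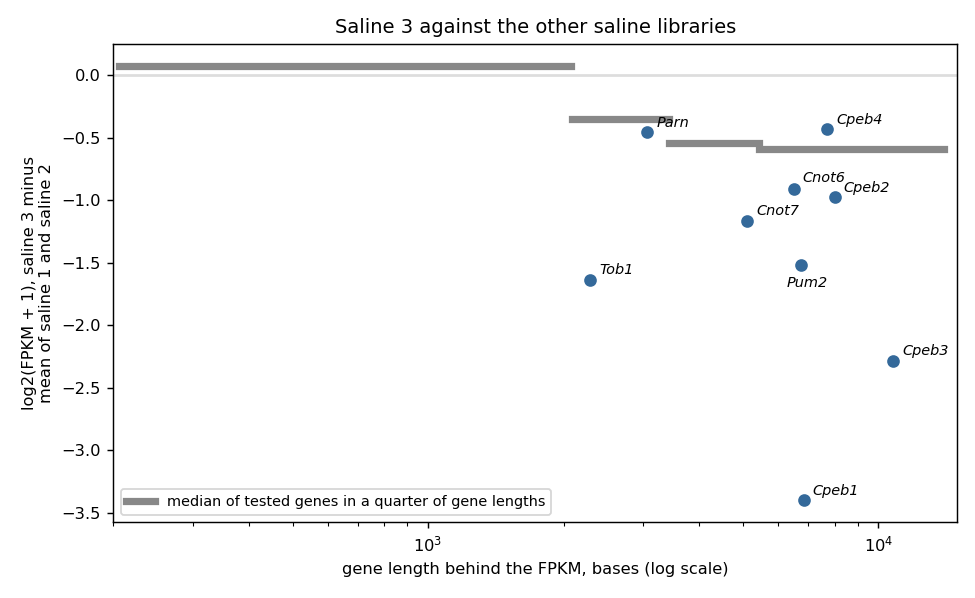
Difference in log2(FPKM + 1) between saline 3 and the mean of saline 1 and saline 2 (y axis) against gene length on a log axis (x axis) for the 9 genes (points); grey bars are medians of all tested genes in each of 4 length classes. All 9 genes are below 0, from -3.40 for Cpeb1 to -0.43 for Cpeb4, and the grey medians fall from 0.08 in the shortest to -0.59 in the longest class.

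The wider machinery of the poly(A) tail was examined with 7 lists of 116 genes, of which 94 were tested. None passed (limma, adjusted p 0.05), 5 had an unadjusted p under 0.05, beside 6.31% of all genes tested, and the groups did not overlap for 18, beside 16.5% of all genes tested. The median log2 fold change was 0.22 over the 94 genes, near that of all genes (0.20), and 0.05 without saline 3. By list, the median was 0.16 for the other CCR4-NOT subunits and BTG/TOB adaptors (10 of 14 above 0), 0.20 for other deadenylases (5 of 8) and 0.12 for poly(A) and terminal nucleotidyl polymerases (11 of 12). It was 0.32 for nuclear cleavage and polyadenylation factors (15 of 17), 0.23 for other 3′ UTR binding proteins (18 of 21) and 0.48 for translational repressors and decapping factors (11 of 13). It was -0.06 for poly(A) binding proteins and their partners (4 of 9 above 0). Without saline 3 the medians were 0.013 for the CCR4-NOT and BTG/TOB list, -0.046 for other deadenylases, 0.16 for the polymerases and 0.094 for nuclear cleavage. They were 0.089 for other 3′ UTR binding proteins, 0.00074 for repressors and decapping factors and 0.26 for poly(A) binding proteins.

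The gene of these lists with the smallest p was Fam46c, a poly(A) polymerase. It was at 3.47, 2.61 and 3.55 FPKM in ISO 1 to 3, against 0.896, 0.795 and 0 FPKM in saline 1 to 3, a log2 fold change of 1.48 (SE 0.35, limma, adjusted p = 0.699). Fam46c is also known from developing red blood cells, and the erythroid list of 9 markers summed to 14111, 14598 and 29639 FPKM in ISO 1 to 3, against 6713, 3776 and 3257 FPKM in saline 1 to 3. The part of red cell RNA in this value was not tested.

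Pabpc1, the main cytoplasmic poly(A) binding protein, was at 125, 146 and 189 FPKM in ISO 1 to 3, against 78.4, 98.4 and 91.5 FPKM in saline 1 to 3. The groups did not overlap, and its log2 fold change of 0.75 (SE 0.24, limma, adjusted p = 0.699) was 0.77 without saline 3. Ddx6, a helicase of repressed messages, was at 24.9, 30.2 and 24.8 FPKM in ISO 1 to 3, against 18.2, 16.8 and 12.0 FPKM in saline 1 to 3. Nudt21, a subunit of cleavage factor I, which governs the choice of polyadenylation site, was at 14.6, 16.2 and 17.5 FPKM in ISO 1 to 3, against 10.5, 7.71 and 5.19 FPKM in saline 1 to 3. In both the groups did not overlap. Without saline 3 the log2 fold change was 0.57 for Ddx6 and 0.77 for Nudt21, against 0.74 and 1.00 with it.

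Among the CCR4-NOT subunits, Cnot1, the scaffold of the complex, was at 13.5, 14.5 and 9.59 FPKM in ISO 1 to 3, against 9.76, 10.1 and 7.35 FPKM in saline 1 to 3, and the groups overlapped. Btg1, a relative of Tob1, was at 11.6, 15.2 and 25.2 FPKM in ISO 1 to 3, against 11.3, 12.4 and 6.54 FPKM in saline 1 to 3, and the groups overlapped. Btg3, of the same family, was at 13.6, 14.0 and 14.5 FPKM in ISO 1 to 3, against 12.9, 12.7 and 3.03 FPKM in saline 1 to 3. Its groups did not overlap, with gaps of under 1 FPKM to saline 1 and 2. Zfp36l2, which recruits the CCR4-NOT complex to AU-rich elements, was at 19.7, 20.1 and 27.1 FPKM in ISO 1 to 3, against 14.7, 15.7 and 6.31 FPKM in saline 1 to 3, a log2 fold change of 0.89 (SE 0.36, limma, adjusted p = 0.699) and 0.51 without saline 3.

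Zcchc6, Papd7 and Dcp2 were likewise higher in every ISO library than in any saline library, without passing the test. They were picked for a small p in these data, which favours groups that do not overlap. Zcchc6, a terminal uridylyl transferase, was at 16.3, 16.8 and 18.2 FPKM in ISO 1 to 3, against 10.7, 14.2 and 4.66 FPKM in saline 1 to 3. Papd7, a non-canonical poly(A) polymerase, was at 5.36, 8.69 and 8.47 FPKM in ISO 1 to 3, against 5.35, 4.82 and 1.56 FPKM in saline 1 to 3, so that ISO 1 and saline 1 were level. Dcp2, the decapping enzyme, was at 2.81, 3.66 and 3.998 FPKM in ISO 1 to 3, against 2.36, 2.07 and 1.46 FPKM in saline 1 to 3. The log2 fold changes were 0.85, 0.87 and 0.60, with 0.44, 0.46 and 0.47 without saline 3, and none of the 3 genes passed. Under the same rule the deadenylases Pnldc1, Noct and Pan2 were picked, and their groups overlapped. Their log2 fold changes were -0.50, 0.71 and 0.56, and -0.32, -0.10 and -0.10 without saline 3.

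Of the 94 genes, 20 had a log2 fold change below 0. Lsm14b, a protein of repressed messages, was at 12.6, 12.4 and 23.1 FPKM in ISO 1 to 3, against 21.1, 25.8 and 26.3 FPKM in saline 1 to 3, a log2 fold change of -0.62 (SE 0.29, limma, adjusted p = 0.699). Pabpn1, the nuclear poly(A) binding protein, was at 147, 157 and 256 FPKM in ISO 1 to 3, against 130, 226 and 889 FPKM in saline 1 to 3. Its log2 fold change of -0.71 was 0.07 without saline 3, which held the highest level by far. Cpsf7, another subunit of cleavage factor I, was at 50.5, 50.5 and 50.9 FPKM in ISO 1 to 3, against 56.0, 59.3 and 10.1 FPKM in saline 1 to 3, and its log2 fold change of 0.62 was -0.18 without saline 3.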

How the data were processed

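Per the labels' protocols, RNA was extracted with trizol, selected on poly-T beads and made into NEBNext libraries. The submitters' processing notes name CASAVA 1.8, fastp 0.20.0, HISAT2 2.1.0, Cufflinks 2.2.1, HTSeq 0.7.2, DESeq and GRCm38, with no role or order. The annotation release, strand setting and maker of the values are not given in the sources used here. The deposited values are FPKM, 1 column per library, scaled by gene length and library total. Where a gene shares exon bases with a gene on the other strand (Cpeb2 137 bases, Cpeb3 116, Cnot7 247 with Zdhhc2, GENCODE M21), reads there cannot be assigned without the strand setting.

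Library totals and whole reads were recovered from the FPKM steps, for all 16816 genes above 0 in at least 2 libraries (tolerance 0.0001), and used for depth, gene length and counting intervals. The test was limma 3.58.1 (R 4.3.3) on log2(FPKM + 1), its trend option on and group as the one term, for the 12269 genes averaging 1 FPKM or more. P-values were adjusted by Benjamini-Hochberg over all of them, with a threshold of 0.05. This scale understates changes of low genes. Recovery and fit were tried on simulated data. The simulation for the fit gave all libraries of a gene the same SD, so it did not cover libraries of unequal quality. Shares and ratios within a library were compared by exact permutation. Python 3.11.15 and scipy 1.17.1 were used otherwise.

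The 9 genes, the pathway and marker lists and the tests were chosen with earlier results of these data known. From each pathway list the rule for named genes takes the 3 with the smallest p and the most abundant; the text gives part of them. Positions are GENCODE M21 (GRCm38). Windows in 3′ UTRs come from the transcript with the longest 3′ UTR.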

Additional observations from a re-analysis of the deposited data

How the results depend on the processing

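No alternative was added after the planned ones. No setting called any of the 9 genes. Over all genes, 0 were called except with sample quality weights (768 genes, with a weight of 0.0772 for saline 3 and 5.50 for ISO 2) and without ISO 1 (16 genes), so leaving out 1 library gave 0 to 16. Cpeb4 kept its direction under all 16 alternatives (log2 fold change 1.05 to 2.46, limma, adjusted p 0.0846 to 0.874), as did Cnot7 and Pum2. Cpeb3 was at -0.98 with quality weights (limma, adjusted p = 0.0933), its smallest adjusted p under any setting. The sign turned for the following. With quality weights the log2 fold change was -0.56 for Cpeb1, -0.28 for Cpeb2, -0.066 for Cnot6 and -0.11 for Tob1. Cpeb2 was at -0.15 with the length trend removed, -0.061 with limma-voom on recovered reads, -0.0064 with median-of-ratios scaling and -0.17 with quantile normalization. Parn was at -0.015 with the length trend removed and -0.060 with quantile normalization. Leaving out 1 library gave -0.29 to 1.45 for Cpeb1, -0.20 to 0.37 for Cpeb2, -1.02 to 0.39 for Cpeb3 and -0.067 to 0.78 for Tob1. It gave -0.28 to 0.036 for the log2 ratio of Cnot6 to Cnot7, and 9.42 to 32.7 points for the Cpeb4 share. The cause was not tested. Same-numbered libraries did not deviate together (correlations of 0.01, -0.15 and -0.03), but the airway marker sum, mostly Scgb1a1, was high in both ISO 3 and saline 3. No label pairs the numbers, and these values cannot settle whether same-numbered libraries were handled together. With the number as a replicate block, 0 genes were called, and the p of the Cpeb4 share was 0.25, the smallest it allows (exact sign-flip test), and that of the Cnot6 to Cnot7 ratio 0.75. Saline 3 had the fewest reads (2776152), and the 9 genes had their widest counting intervals relative to the level there.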
